A study of Rattus norvegicus with 6 samples.

Results

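The genes described here are 10 early response genes of the Egr, Nr4a, Ier and Zfp36 families, picked out of the deposited table by their symbols. Of these, 9 have a row among the 17273 genes of the authors' deposited table, and all 9 passed a filter on low counts that kept 13747 genes. The remaining gene, Ier2, was not analysed here. The cells were nucleus pulposus cells, the cells of the soft disc centre between vertebrae, taken from wild-type male Sprague Dawley rats, and both groups were grown in DMEM with fetal bovine serum. The control group (3 libraries) was untreated, and the lactate group (3 libraries) was given 10 mM lactate for 8 h, with the aim of finding the genes that differ after lactate. The labels give no age, and no time for the control group. They also leave unsaid in which chemical form lactate was added and whether libraries came from separate animals or cultures. The p-values therefore cover the library-to-library spread alone, and that spread could be technical.

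Early response genes are transcribed from pre-made factors, without new protein synthesis, when a signal reaches the cell. Serum response factor (SRF) with its ternary complex partners acts on a DNA motif called the CArG box, and CREB acts on the cyclic AMP response element (CRE). EGR and NR4A proteins are themselves transcription factors, the latter orphan nuclear receptors, while ZFP36 (tristetraprolin) recruits deadenylases to AU-rich mRNAs. These genes are known for rapid rises that fade within hours, so a level at 1 late time does not show the course before it.

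Libraries held 30291357 to 38989574 counts. Levels are given as CPM, a depth-scaled count, with TMM factors that correct library size for RNA make-up, and a single count was worth 0.0194 to 0.0470 CPM. Scaling mattered: TMM factors lay between 1.33 and 1.36 for controls and between 0.702 and 0.806 after lactate, and all tested genes together had a median log2 fold change of −0.10 under TMM and −0.96 when libraries were scaled by their totals alone. Log2 fold changes with library totals are therefore given beside those with TMM for the early genes. For other genes they are those with TMM unless another setting is named. Over all tested genes, 31.4% were called higher and 34.6% lower with TMM, and 12.5% and 61.8% with library totals. Of 11 tested nucleus pulposus and cartilage markers, 4 were called higher and 3 lower (1 and 5 with library totals), near those shares under TMM. The smallest p-values were those of Cd24 (log2 fold change 2.32), Hif1a (0.84), Foxa2 (−1.97) and Sox9 (1.45). Acan was abundant (2393 ± 159 CPM in control, SD, n = 3), but Tbxt (brachyury) and Krt19 had at most 4 counts in any library and 0 in all lactate libraries. Fibroblast markers summed to 29581 to 35437 CPM in control and 100893 to 145445 CPM in lactate libraries, nearly all Col1a1 (log2 fold change 1.97). Of the 5 tested, Thy1 rose as well (1.24), Mkx (−2.36) and Pdgfra (−1.42) fell and Scx was not called (0.10), and with library totals 2 were higher and 3 lower. Macrophage markers summed to 9.65 to 10.7 and 4.19 to 5.40 CPM, and endothelial markers to at most 0.680 CPM. Only 2 macrophage markers were tested, Cd14 and Cd68, of which 1 was called higher and 1 lower (0 and 1 with library totals). The 1 endothelial marker tested was not called. Ptprc, Pecam1 and Cdh5 had no row, so these sums leave them out. The part of these differences in the results was not tested, and in bulk RNA fewer cells of a type and less RNA per cell cannot be told apart.

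The early genes went opposite ways. Ier5, Zfp36, Ier3, Nr4a1 and Nr4a3 rose between 3.90-fold and 15.4-fold, Egr1 fell to 0.387 of its control level, and Egr2, Egr3 and Nr4a2 had lower means that did not pass the test. By the quasi-likelihood test of edgeR, called at a Benjamini-Hochberg adjusted p under 0.05 over all tested genes, 6 of the 9 (66.7%) were called. That is the background share, since 66.0% of all tested genes were called. By direction, 5 of 9 were higher, where 31.4% of all tested genes were called higher, and 1 of 9 was lower, where the share was 34.6%. With library totals the same 5 were higher (background 12.5%) and all 4 others lower (background 61.8%), so no gene changed direction between the scalings. All 6 called genes also differed by at least 2-fold, and 40.6% of all tested genes met both criteria. The groups did not overlap in 7 of 9 genes with TMM (72.2% of all tested genes), 5 of them higher (33.7%) and 2 lower (38.4%). The 9 genes had a median of 1.97 on the log2 scale under TMM and 1.11 with totals.

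**Figure D1:**
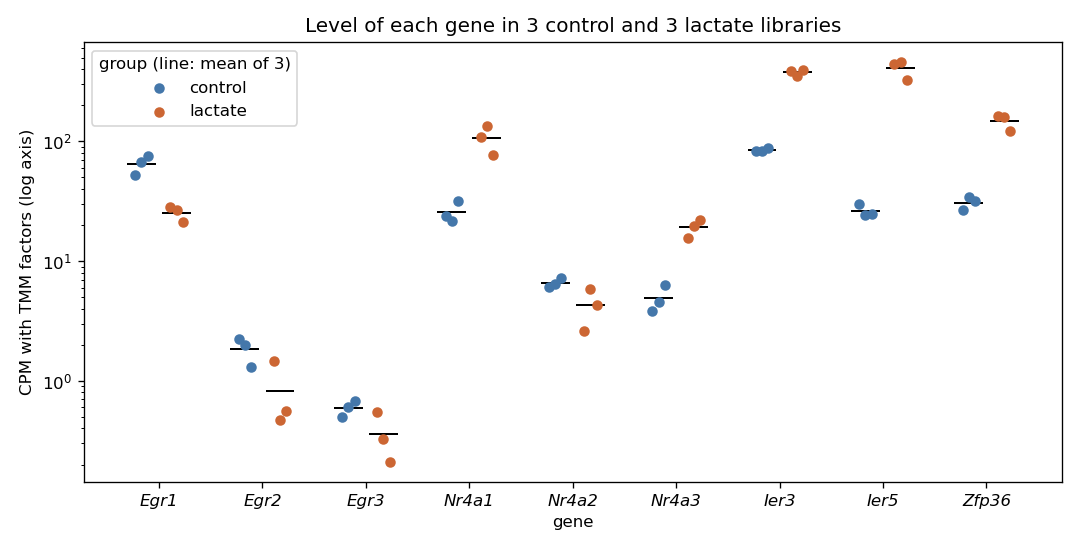
Level of each gene in CPM with TMM factors (vertical log axis) in the 3 control and 3 lactate libraries (points) with the group mean (line). Ier5 shows the widest gap between the groups, from at most 30.2 CPM in control to at least 325 CPM in lactate libraries, and the groups overlap for Egr2 and Egr3.

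**Figure D2:**
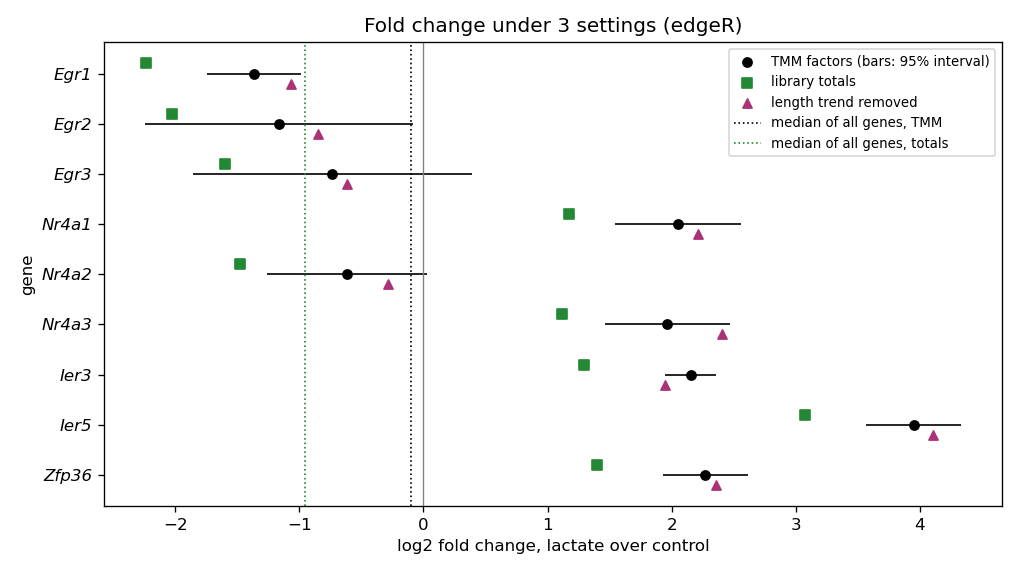
Log2 fold change of lactate over control by edgeR for each gene, with TMM factors (bars, 95% confidence interval), with library totals, and with the trend on transcript length removed; dotted lines mark the median of all tested genes under the first 2 scalings. Every gene keeps its side of 0 in all 3 settings, and only the intervals of Egr3 and Nr4a2 with TMM factors include 0.

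Ier5 showed the largest difference among these genes. It encodes a nuclear protein that brings the phosphatase PP2A to the heat shock factor HSF1. Its level was 30.2, 24.4 and 24.5 CPM in control libraries 1, 2 and 3, and 440.1, 456 and 325 CPM in lactate libraries 1, 2 and 3. The groups lay far apart, although lactate library 3 was below the other 2. The log2 fold change was 3.95 ± 0.17 (SE; edgeR adjusted p = 1.4e-06) and 3.08 with library totals. Only 0.807% of the tested genes had a larger one. Its relative Ier5l rose less, from 32.7 ± 2.87 to 79.3 ± 7.61 CPM (SD, n = 3). Its fold change on the log2 scale was 1.28 ± 0.12 (SE; edgeR adjusted p = 2.6e-05), or 0.42 by totals alone.

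The 250 bases before the start of Ier5 in RefSeq (rat build GRCr8, minus strand) are shown because they carry none of the CArG or CRE letters found in other members; capitals mark the TATA box (TATAAA) and 2 inverted CCAAT boxes.
Ier5: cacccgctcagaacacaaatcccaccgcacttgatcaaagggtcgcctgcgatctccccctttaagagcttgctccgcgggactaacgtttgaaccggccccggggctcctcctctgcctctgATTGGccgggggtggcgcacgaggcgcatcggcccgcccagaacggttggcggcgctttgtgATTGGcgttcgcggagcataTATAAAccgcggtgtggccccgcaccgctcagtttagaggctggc

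Ier3 (IEX-1), a short-lived regulator of survival and of ERK and PP2A activity, rose, with little spread under TMM. It was at 83.1, 83.3 and 88.1 CPM in control and 388, 353 and 391 CPM in lactate libraries, so that the groups lay far apart. Scaled by library totals, the lactate libraries spread more, at 280, 248 and 315 CPM. The log2 fold change was 2.15 ± 0.09 (SE; edgeR adjusted p = 1.4e-06) and 1.30 with library totals. Reads of Ier3 per read of Ier5 averaged 3.23 in control and 0.936 in lactate libraries (geometric means), a log2 change of −1.79 ± 0.22 (SE). This ratio does not depend on how libraries are scaled. The exact permutation test gave p = 0.10, the smallest that 3 against 3 allows (two-sided; 0.15 adjusted over 9 pairs).

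Zfp36, whose protein binds AU-rich mRNAs and promotes their decay, rose as well. Control libraries were at 26.8, 34.1 and 31.5 CPM and lactate libraries at 164, 160.1 and 122 CPM. The lowest lactate library, number 3, was still above all controls. The log2 fold change was 2.27 ± 0.15 (SE; edgeR adjusted p = 5.2e-06), and 1.40 with library totals. Its relatives, which bind the same kind of sites, differed less. Zfp36l1 went from 51.6 ± 10.9 to 113.7 ± 23.2 CPM (SD, n = 3; log2 fold change 1.14 ± 0.20, edgeR adjusted p = 0.00092), but was not called with library totals (0.27). Zfp36l2 was at 0.20 ± 0.19 (edgeR adjusted p = 0.38), at −0.68 and called lower with library totals, and at 0.55 and called higher with the trend on length removed. Relative to each, in the same library, Zfp36 gained 1.12 ± 0.13 and 2.10 ± 0.18 log2 units (SE; exact permutation p = 0.10 for both, adjusted 0.15). As a share of the summed FPKM of all 3 genes, a measure per transcript length, Zfp36 made up 26.7% ± 1.22 of controls and 53.0% ± 2.56 after lactate (SD, n = 3). The least abundant of the 3 genes in control libraries 2 and 3 was thus the most abundant in every lactate library.

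The same window of Zfp36 (minus strand) is shown for its CArG box, which lies at −32 counted from the start and is in capitals here.
Zfp36: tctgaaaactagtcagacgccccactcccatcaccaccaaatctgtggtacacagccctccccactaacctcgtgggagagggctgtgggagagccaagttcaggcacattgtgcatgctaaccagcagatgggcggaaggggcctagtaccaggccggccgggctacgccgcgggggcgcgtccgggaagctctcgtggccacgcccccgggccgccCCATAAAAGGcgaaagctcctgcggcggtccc

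The Nr4a receptors split. Nr4a1 (Nur77) was at 23.6, 21.7 and 31.6 CPM in control and at 109, 133 and 76.8 CPM in lactate libraries, with no overlap. Its log2 fold change was 2.05 ± 0.22 (SE; edgeR adjusted p = 6.3e-05), and 1.17 with library totals. Nr4a3 (NOR-1) was at 3.85, 4.53 and 6.30 CPM in control and 15.7, 19.6 and 22.02 CPM in lactate libraries. It rose by 1.97 ± 0.22 on the log2 scale (SE; edgeR adjusted p = 7.8e-05), and by 1.11 with library totals. Nr4a2 (Nurr1) was not called. Control libraries were at 6.06, 6.47 and 7.17 CPM and lactate libraries at 2.63, 5.88 and 4.33 CPM. All lactate libraries lay below the controls, but lactate library 2 by little. The log2 fold change was −0.62 ± 0.28 (SE; 95% interval −1.26 to 0.03, edgeR adjusted p = 0.083). Scaling by library totals called it lower (−1.48, edgeR adjusted p = 0.0017), as did leaving out lactate replicate 2 (−0.91, edgeR adjusted p = 0.017), while leaving out lactate replicate 1 gave −0.35 (edgeR adjusted p = 0.23). It was −0.29 with the trend on length removed.

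The ratios within libraries show this split without any scaling. Reads of Nr4a1 per read of Nr4a2 averaged 3.86 in control and 25.4 in lactate libraries (geometric means), a 6.58-fold change (log2 change 2.72 ± 0.38, SE). Nr4a2 against Nr4a3 changed by −2.66 ± 0.28, from more reads of Nr4a2 in each control library to more reads of Nr4a3 in each lactate library. In both pairs the groups did not overlap (exact permutation p = 0.10, adjusted 0.15). Nr4a1 against Nr4a3 differed by 0.05 ± 0.34, with overlapping groups (exact permutation p = 0.90), so these data did not separate the rises of these 2 genes. Nr4a1 provided 79.8% ± 1.04 of the family's summed FPKM in controls and 89.5% ± 3.72 after lactate (SD, n = 3). The share of Nr4a2 went from 12.98% ± 1.42 to 2.31% ± 0.829.

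The window before Nr4a1 (plus strand) is shown for its 4 matches to the CRE half-site CGTCA, in capitals. Over windows of 300 bases, from 250 before to 50 after the start, in which Nr4a1 also has 4 copies, 21.2% of 33469 rat promoters held this half-site on either strand and 0.236% held 4 or more copies. These shares include promoters of genes not tested here. Of the 9397 tested genes with a window, 3136 held the half-site, and the share with 4 or more copies was not counted among them.
Nr4a1: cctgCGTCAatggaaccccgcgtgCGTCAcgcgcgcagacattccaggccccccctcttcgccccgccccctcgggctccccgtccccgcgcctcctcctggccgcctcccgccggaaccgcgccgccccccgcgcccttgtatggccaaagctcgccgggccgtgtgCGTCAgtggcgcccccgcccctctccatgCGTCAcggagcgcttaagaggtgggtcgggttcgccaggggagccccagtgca

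**Figure D3:**
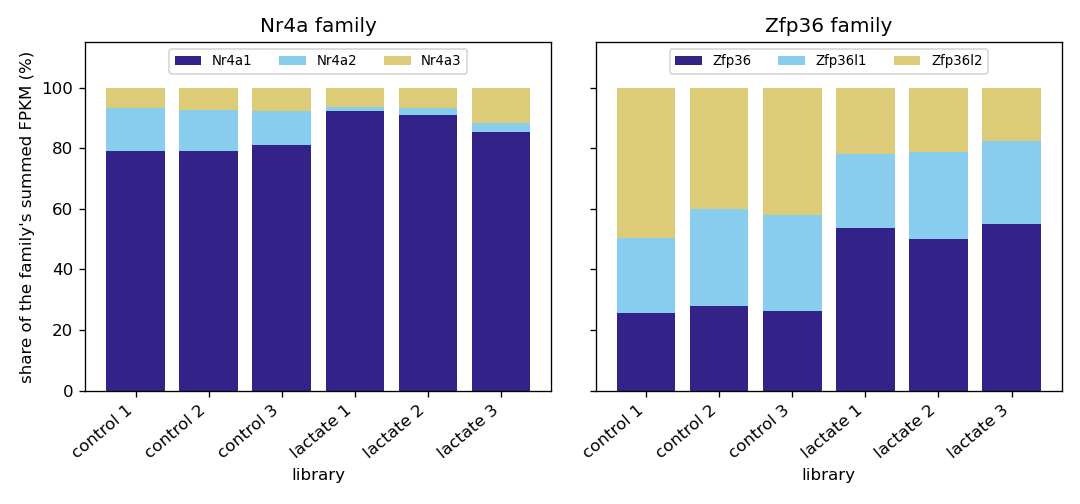
Share of each gene (%) in the summed FPKM of the Nr4a family (left) and of Zfp36 with its 2 relatives (right), for each of the 3 control and 3 lactate libraries. The Nr4a2 segment shrinks from 12.98% to 2.31% on average, and the Zfp36 segment grows from 26.7% to 53.0%.

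**Figure D4:**
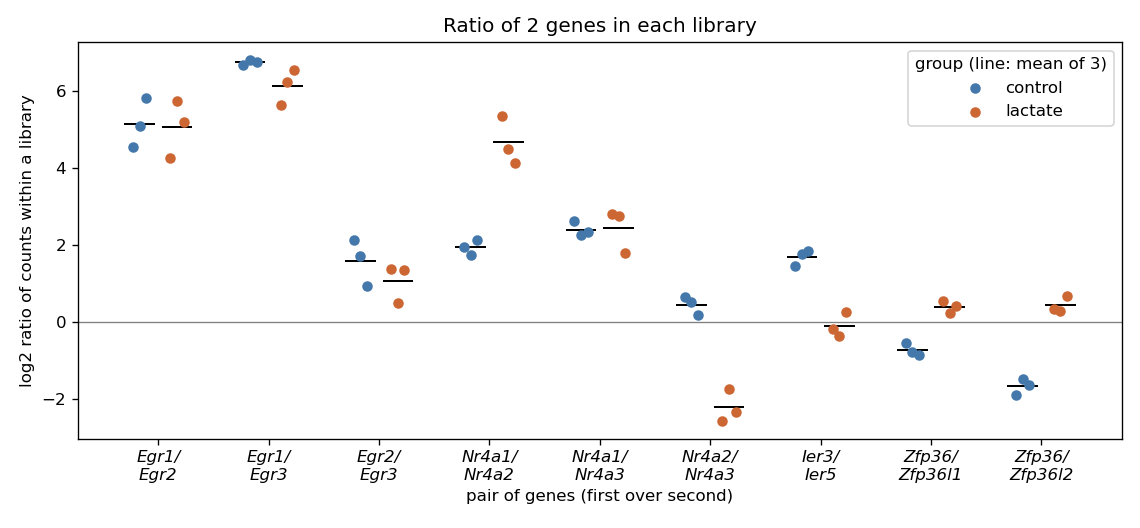
Log2 ratio of the counts of 2 genes in the same library (vertical axis) for 9 pairs, with points for the 3 control and 3 lactate libraries and lines for group means. Groups lie apart for the 2 pairs with Nr4a2, for Ier3 against Ier5, for Egr1 against Egr3 and for Zfp36 against each relative, and overlap for Egr1/Egr2, Egr2/Egr3 and Nr4a1/Nr4a3.

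Of the Egr genes, zinc finger factors that bind GC-rich sites, Egr1 fell and Egr2 and Egr3 did not pass the test. Egr1, the main member in these cells, was at 52.8, 67.8 and 74.9 CPM in control and 28.3, 26.5 and 21.0 CPM in lactate libraries. No lactate library reached the lowest control. The log2 fold change was −1.37 ± 0.17 (SE; edgeR adjusted p = 0.00012), a 2.58-fold lower level, and −2.24 with library totals. Egr2 (Krox20) had 103, 102 and 62 control counts and 32, 10 and 16 lactate counts, or 1.32 to 2.25 and 0.470 to 1.45 CPM. Lactate library 1 lay within the control range. Egr2 narrowly missed the threshold at −1.17 ± 0.47 (SE; 95% interval −2.24 to −0.09, edgeR adjusted p = 0.056), and was called lower with library totals (−2.03) and without lactate replicate 1 (−1.82, edgeR adjusted p = 0.0071). Without lactate replicate 2 it was −0.89 (edgeR adjusted p = 0.15). Egr3 had 23, 31 and 32 control counts and 12, 7 and 6 lactate counts. Its log2 fold change was −0.73 ± 0.49 (SE; edgeR adjusted p = 0.22), and the 95% interval of −1.86 to 0.39 shows how little these counts can decide. With library totals it was −1.60 and called (edgeR adjusted p = 0.014). Egr4, which did not pass the filter, had 2 counts in 1 control library and 3 and 5 in 2 lactate libraries.

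Within the family, Egr1 provided 95.9% ± 0.804 of the summed FPKM in controls and 94.2% ± 3.03 after lactate (SD, n = 3). Egr1 against Egr2 changed by −0.09 ± 0.57 log2 units in the same library, with overlapping groups (exact permutation p = 0.90). Egr1 against Egr3 changed by −0.61 ± 0.26, with no overlap but few counts of Egr3 (exact permutation p = 0.10, adjusted 0.15), and Egr2 against Egr3 by −0.53 ± 0.46 (exact permutation p = 0.40).

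The window before Egr2 (minus strand) is shown because it carries both motifs, a CArG box at −83 and a CRE half-site at −66; capitals mark these and an inverted CCAAT box.
Egr2: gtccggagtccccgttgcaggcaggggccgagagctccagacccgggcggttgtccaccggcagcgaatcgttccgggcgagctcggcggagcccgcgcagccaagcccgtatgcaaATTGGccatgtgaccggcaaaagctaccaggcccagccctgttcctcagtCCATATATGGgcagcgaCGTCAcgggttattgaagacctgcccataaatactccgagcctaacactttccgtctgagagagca
The window of Egr1 holds the same CArG letters, CCATATATGG, at −83 and a CRE half-site at −66, besides a second match to each.

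RefSeq windows (250 bases before to 50 after the start) were matched for 7 of the 10 genes, using the first window listed for each. In the counts over tested genes, a gene held a motif if any of its windows did. A CArG box (CC, then 6 letters A or T, then GG, which reads alike on both strands) was found in 3 of them: Egr1, which fell, Egr2, which was lower but not called, and Zfp36, which rose. Of all 33469 windows 1.64% held one. Among 135 tested genes with a CArG box in a window, 27.4% were called higher and 41.5% lower, with a median log2 fold change of −0.31. Over the 9397 tested genes with a window these were 31.7%, 35.9% and −0.10. CRE half-sites (CGTCA) occurred in Egr1, Egr2, Nr4a1, Nr4a2 and Ier2, the last with the only full CRE (TGACGTCA, which contains the half-site on each strand, in 1.83% of all windows). Among 3136 tested genes with a half-site, 35.8% were called higher and 33.1% lower, with a median log2 fold change of 0.01. Among 303 with a full CRE these were 38.3%, 28.7% and 0.04. Of the called genes, Egr1 (lower) and Zfp36 (higher) held a CArG box, and Egr1 and Nr4a1 (higher) a CRE half-site. Egr3, Nr4a3 and Ier3 had no window, and Ier2 was not analysed. Whether a motif goes with a direction among these genes was not tested. The Egr site searched (GCGGGGGCG, 2.73% of windows) occurred in Nr4a1 and Zfp36, and the Nr4a site AAAGGTCA (1.43%) in none of the 7. Of the 9397 tested genes with a window, 522 held the Egr site and 79 the Nr4a site. A match is a string of letters and not a measured binding site.

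Levels of different genes can be compared only per transcript length, as FPKM. In control libraries Ier3 was the most abundant of the 9 at 102.9 ± 4.25 FPKM (SD, n = 3), followed by Egr1 (27.3 ± 4.62) and Zfp36 (22.3 ± 2.38), whose libraries overlapped, then Ier5 (16.6 ± 2.28) and Nr4a1 (15.9 ± 3.51), which overlapped too. Nr4a2 (2.55 ± 0.221), Nr4a3 (1.46 ± 0.383), Egr2 (0.746 ± 0.194) and Egr3 (0.390 ± 0.166) were far lower, and only the last 2 overlapped. In lactate libraries the order was Ier3 (250.3 ± 30.3 FPKM), Ier5 (139 ± 15.1), Zfp36 (58.4 ± 5.26), Nr4a1 (35.5 ± 6.88), Egr1 (5.75 ± 0.520), Nr4a3 (3.14 ± 0.718), Nr4a2 (0.905 ± 0.328), Egr2 (0.181 ± 0.113) and Egr3 (0.162 ± 0.126). Here again only the last 2 overlapped. Ranks within a library do not depend on scaling, but they are relative to the levels of all other genes. By FPKM rank among all 17273 genes, Ier5 moved from percentile 75.0 ± 2.26 to 97.0 ± 0.351 and Nr4a3 from 35.6 ± 2.34 to 57.3 ± 2.41 (SD, n = 3). Egr1 moved from 83.7 ± 2.88 to 67.2 ± 2.92, while Nr4a2 stood at 41.8 ± 1.01 and 40.7 ± 4.62, with overlapping groups. Its rank thus held although its mean FPKM was 2.55 in control and 0.905 in lactate libraries. FPKM of Egr3 should be read with its counts, since its ratio of count to FPKM, relative to the library median, varied 2.11-fold between libraries. That ratio varied 1.19-fold for Nr4a1 and at most 1.02-fold for the other 7.

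The co-repressors that EGR proteins recruit were lower. Nab1 fell from 61.8 ± 1.16 to 34.1 ± 5.52 CPM and Nab2, itself a known Egr target, from 106.1 ± 8.95 to 63.9 ± 6.76 CPM (SD, n = 3). On the log2 scale these were changes of −0.86 ± 0.13 and −0.73 ± 0.12 (SE; edgeR adjusted p = 0.00044 and 0.00057). With the trend on length removed Nab1 was at −0.41 and Nab2 at −0.22, the latter not called. The retinoid X receptors, with which NR4A1 and NR4A2 can pair, fell as well, Rxra by 1.03 ± 0.20 and Rxrb by 0.45 ± 0.16 (edgeR adjusted p = 0.0020 and 0.037), and Rxrb was not called with the trend on length removed (−0.26).

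Among the factors that switch early genes on, calls went both ways. The shares called over all tested genes, against which each count below can be read, were 31.4% higher and 34.6% lower with TMM, and 12.5% and 61.8% with library totals. The list of SRF, its cofactors and ETS-type factors (Elk1, Elk3, Elk4, Ets1 and Ets2) had 7 tested genes. Of these, 3 were higher and 2 lower (2 and 3 with library totals), near those shares under TMM, with a median log2 fold change of −0.22. Ets1 and Ets2 rose by 1.65 ± 0.15 and 1.69 ± 0.18, while Mrtfa, the actin-sensing SRF cofactor, fell by 0.90 ± 0.15. Srf itself, named after its values were seen, was called lower at −0.27 ± 0.10 (edgeR adjusted p = 0.045), but was at 0.14 and not called with the trend on length removed. Elk1 was called higher with TMM (0.55 ± 0.14) and was at −0.31, not called, with library totals. Elk3 (−0.26) and Elk4 (−0.22) were not called with TMM, but Elk3 was called lower with library totals (−1.13). Of 8 CREB factors and coactivators 4 were higher and 1 lower with TMM (31.4% and 34.6% over all tested genes), and 0 and 4 with library totals (12.5% and 61.8%). Crebbp was at 1.15 ± 0.18, Atf1 at 0.88 ± 0.11, Ep300 at 0.87 ± 0.18 and Crtc2 at 0.78 ± 0.15, all 4 not called with library totals. The gene called lower with TMM, Crtc1, named after its values were seen, was at −1.01 ± 0.21 (edgeR adjusted p = 0.0030). It was also called lower with library totals (−1.86) and with the trend on length removed (−0.90).

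Of 16 genes of the ERK cascade, the main route from growth factors to Egr genes, 5 were higher and 5 lower, again near 31.4% and 34.6%, with a median log2 fold change of 0.14 (0 and 11 with library totals, median −0.71). The kinase gene Rps6ka3 (RSK2) fell by 1.55 ± 0.16 and the adaptor gene Shc1 by 0.95 ± 0.09. In the p38 branch, whose kinase MK2 phosphorylates ZFP36, 2 of 7 were higher and 2 lower (1 and 3 with library totals), about the shares of all tested genes under TMM (31.4% and 34.6%). Mapkapk3 (MK3) rose from 22.6 ± 1.23 to 95.7 ± 1.56 CPM (SD, n = 3; log2 fold change 2.08 ± 0.10, edgeR adjusted p = 2e-06), and Mapkapk2 (MK2) by 0.81 ± 0.10, the latter not called with library totals (−0.05). Mapk14 (p38 alpha) and Rps6ka4 (MSK2) fell by 0.62 ± 0.14 and 0.77 ± 0.12, and Mapk14 was not called with the trend on length removed (−0.29).

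Other immediate early genes were mostly higher. Of 32, 25 were higher, 3 lower and 4 not called with TMM (median 1.43), and 16 higher and 8 lower with library totals (median 0.56). Over all tested genes 31.4% were called higher with TMM and 12.5% with totals. Tiparp (4.93 ± 0.14), the clock gene Per1 (3.91 ± 0.13), Maff (3.06 ± 0.11) and the EGF receptor inhibitor Errfi1 (2.93 ± 0.12) had the smallest p-values. The genes called lower besides Egr1 were Ptgs2 (−1.14 ± 0.20), Rhob (−0.69 ± 0.16) and Arc (−1.87 ± 0.58), named after their values were seen. Arc had at most 34 counts in any library.

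Of the deadenylation and decapping genes through which ZFP36 acts, 7 of 12 were higher and 3 lower with TMM (31.4% and 34.6% over all tested genes). With library totals 2 were higher and 5 lower, where the shares over all tested genes were 12.5% and 61.8%. Pabpc1, the poly(A)-binding protein, rose by 1.45 ± 0.12, the decapping scaffold Edc3 by 1.36 ± 0.12, Dcp1a by 1.27 ± 0.21 and the deadenylase Cnot6l by 1.10 ± 0.17, the last 2 not called with library totals. Of 8 tested AU-rich mRNAs known as ZFP36 targets, a list that holds Ier3 itself, 6 were higher and 1, Ptgs2, lower (5 and 1 with library totals; median 2.31), beside 31.4% and 34.6% over all tested genes (12.5% and 61.8% with totals). Pim1 rose by 4.21 ± 0.22, Cxcl1 by 2.60 ± 0.17 and Vegfa by 2.47 ± 0.17. Tnf had 0 control counts and 2 to 4 counts in lactate libraries. Among HSF1 and the heat shock genes tied to Ier5, 5 of 6 were higher and 0 lower (31.4% and 34.6% over all tested genes), and 3 and 1 with library totals (12.5% and 61.8%), with Ppp2r2a, the PP2A subunit that binds IER5, at 1.48 ± 0.10, Hspa1b at 2.66 ± 0.35, Hsph1 at 2.23 ± 0.29 and Bag3 at 0.96 ± 0.11. Bag3 was not called with library totals.

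**Figure D5:**
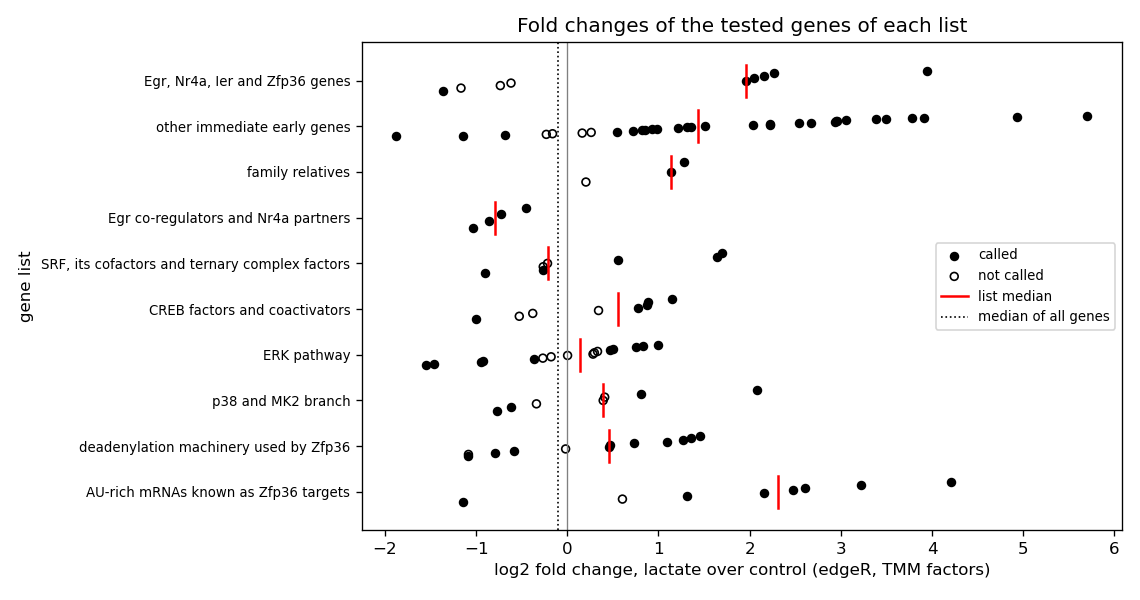
Log2 fold change (edgeR, TMM factors; horizontal axis) of each tested gene in 10 gene lists, with filled points for called genes, open points for others, a red line for the list median and a dotted line for the median of all genes (−0.10). The early genes span −1.37 to 3.95, other immediate early genes have a median of 1.43, and the 4 Egr co-regulators and Nr4a partners all lie below 0. The list with Srf and the ternary complex factors also holds Ets1 and Ets2.

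For each called gene the most similar profiles over the 6 libraries were taken as the smallest root mean square (RMS) difference of centred log2 CPM. This is a description over 6 libraries in 2 groups, in which any gene of like fold change comes close. The nearest to Zfp36 were Ints12 (RMS 0.0315) and Snai1 (0.0624), and to Ier3 they were Ipo5 (0.0430) and Smg8 (0.0475). Nr4a1 was closest to Marcksl1 (0.142) and Jun (0.143), Ier5 to an unnamed gene model (0.157) and the early gene Csrnp1 (0.159). Nr4a3 was closest to Zfp597 (0.129) and another unnamed model (0.146), and Egr1 to RGD1563888 (0.0559) and Prrx1 (0.0767).

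The authors' deposited table gives log2 fold changes of 3.91 for Ier5, 2.23 for Zfp36, 2.12 for Ier3, 2.01 for Nr4a1, 1.93 for Nr4a3, −1.40 for Egr1, −1.20 for Egr2, −0.77 for Egr3 and −0.65 for Nr4a2. The authors' deposited table of selected genes holds 7 of the 9 and leaves out Egr3 and Nr4a2. Its 6359 genes are those of the larger table with an unadjusted p under 0.05 and at least a 2-fold change, so that Egr2, with an adjusted p of 0.052 in the authors' deposited table, is among them.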

How the data were processed

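The authors deposited, per the file headers, a table with raw read counts and FPKM of 17273 genes in 6 libraries, with their own comparison as log2 fold changes, p-values and adjusted p-values, and a table of 6359 selected genes. Libraries came from an mRNA kit, per the labels' protocols. Builds listed in the submitters' processing notes are the mouse builds GRCm38 and mm10, while gene names are those of rat, so no coordinates are given. For aligner, counter, annotation and strand the sources are silent: not given in the sources used here. Genes that overlap others or have close copies are uncertain.

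Counts were tested in edgeR 4.0.16 by its quasi-likelihood test (R 4.3.3; TMM, filterByExpr, group as the only term, Benjamini-Hochberg over 13747 genes). The SE of a fold change is its size over the root of that test's F. Ratios of 2 genes used a prior count of 0.5 and a two-sided exact permutation test. Alternatives used limma 3.58.1 and DESeq2 1.42.0. Relative transcript length was the ratio of count to FPKM, and its loess trend was removed through offsets. The scripts were tested on simulated data with few changed genes, equally many up and down. That setting lacks the large differences in TMM factors seen here, so it does not test the choice of scaling. Promoter windows are from RefSeq (GRCr8).

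The members, lists, motifs and tests were chosen with earlier results of these data known. All 9 genes with a row are named, with the called genes of smallest p in each list (up to 4), the relatives and co-regulators, and the 2 nearest profiles of each called gene; some genes that this rule names are not reported here. Same-numbered libraries of the 2 groups were not taken as pairs, since the labels tie the numbers to nothing else.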

Additional observations from a re-analysis of the deposited data

How the results depend on the processing

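Directions of all 9 genes were the same under the 17 alternatives (16 for Egr3, which the stricter filter removed). Ier3, Ier5, Zfp36, Nr4a1 and Nr4a3 were called higher and Egr1 lower in all 17. The ranges were 2.99 to 4.12 for Ier5, 1.27 to 2.20 for Ier3, 1.35 to 2.42 for Zfp36, 1.11 to 2.27 for Nr4a1, 0.75 to 2.40 for Nr4a3 and −2.24 to −1.07 for Egr1. The smallest rises came from limma-trend on log2(FPKM + 1), and the largest fall of Egr1 from library totals. Egr2 was called lower in 9 of 17 (edgeR adjusted p 0.16 at most, and 0.048 with DESeq2), Nr4a2 in 6 of 17 and Egr3 in 1 of 16. Thus 1 of the 9 was called lower in the main edgeR fit, and 2 with DESeq2, the stricter filter or the replicate number as a block. Limma-voom, upper-quartile factors and limma-trend on FPKM each called 3 lower, and library totals called 4. Of these, the stricter filter, the replicate block and limma-voom also used TMM factors. The cause of the differences was not tested.

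With the replicate number as a block, 7 of the 9 were called and 8814 genes in all. Egr2 then passed (−1.27, edgeR adjusted p = 0.037). Whether the numbers pair the samples cannot be decided from 3 libraries per group. Deviations of same-numbered libraries correlated at 0.0078, 0.0381 and 0.0840, and those of differently numbered ones at −0.108 to 0.0713. For 1 control and 2 lactate libraries the best correlation was not with their own number. Leaving out 1 library gave 6 or 7 calls among the 9 and 8026 to 9407 over all genes, against 9079. The small log2 ratios turned sign without single libraries. Egr1/Egr2 ranged from −0.43 (without lactate replicate 2) to 0.32, and was 0.25 without control replicate 3 and 0.32 without lactate replicate 1. Nr4a1/Nr4a3 ranged from −0.12 to 0.38 (without lactate replicate 3), and was −0.02 without control replicate 2, −0.12 without lactate replicate 1 and −0.10 without lactate replicate 2. Depth limits Egr2 and Egr3, with at most 103 counts in a library.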
